A study of Homo sapiens with 30 samples.

Results

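The response of MR49F cells to dihydrotestosterone (DHT) in charcoal-stripped serum was measured in 6 of the 30 RNA-seq samples of the study. These were the 3 replicates treated with DHT and the 3 replicates treated with vehicle, chosen by their treatment labels. MR49F is a human prostate cancer line derived from LNCaP xenografts in castrated mice under prolonged enzalutamide, an antiandrogen, and it is resistant to that drug. The line is kept in 10 μM enzalutamide, and a period of 96 h without the drug is recorded for all samples used here. In the enzalutamide-treated samples described below, this period cannot include the treatment itself. All 6 cultures were kept for 72 h in medium with 10% charcoal-stripped serum, which is depleted of steroids. They were then treated for 24 h with 1 nM DHT or with vehicle, which was 0.1% DMSO and 0.1% ethanol. A further 3 samples of the same serum, treated with 10 μM enzalutamide in place of DHT, were used for a direct comparison. All of these samples share the earlier enzalutamide culture, and results in this 1 line need not hold for others. Wells were combined for each replicate; the study calls its replicates biological, but the sources used here do not say how the cultures were separated, so p-values measure the spread between these samples, which may be partly technical.

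DHT is the most potent natural androgen. Androgens act on transcription in the nucleus, at DNA sites called androgen response elements, where coactivators are recruited at many genes and the transcription of others is lowered. In luminal cells of the prostate they drive the secretory programme, including kallikreins and acid phosphatase, the lipid and sugar metabolism that feeds it, and, in cancer cells, growth.

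Gene levels are given as FPKM, sequenced fragments per transcript length and library depth, summed over the transcripts of a gene. Read counts per gene served as the second measure, since only 5.309% to 7.509% of the counted reads fell on genes in the 6 samples (1221104 to 1643261 reads), against 72.97% to 77.813% in the 12 samples grown in full serum. In vehicle samples of MR49F, counts per FPKM were lower in stripped than in full serum by a median of 3.49 on the log2 scale over 12230 genes without exons of another gene on the opposite strand, and by 0.44 for 40 low genes that had a highly expressed partner on the opposite strand. Which strand was counted is not given in the sources used here, and because the ratio was lower also over genes without such overlap, it is uncertain whether the counts of any gene in these samples are reads from its own strand. This limit applies to every count value and to every call made in both measures, and whether the counted strand differed between the serum types was not tested. It is most direct for genes with exons overlapped on the opposite strand, whose reads were not reliably separated in the counts. Among the genes named here these were TMPRSS2, MX1, ATP6V1C2, MED28, SCNN1A, FADS2, CREB3L4, PDIA6, CANX, SLC7A11, MPC2, IDH3A, NOP16, MCM7, GINS2, TYMS, PLK1, TNFRSF10B, ERBB2, PIK3CA, WIPI1, KRT8, KRT18 and NCAPD3. A gene is said to have risen or fallen only where both measures passed at an adjusted p of at most 0.05 with the same sign, using limma on log2(FPKM + 1) and edgeR's quasi-likelihood test on counts. Differences are DHT minus vehicle on the log2(FPKM + 1) scale with their standard error (SE) unless counts are named, and this scale understates the change of genes with low FPKM. Of 9 luminal epithelial markers, 8 were at 1 FPKM or more in all 6 samples, with a summed level of 1190 to 1232 FPKM with vehicle and 2555 to 2771 FPKM with DHT. None of 5 basal, 7 fibroblast and 4 endothelial markers was at 1 FPKM or more in all 6 samples. The fibroblast markers summed to 2.64 to 2.82 FPKM with vehicle and 0.991 to 1.003 FPKM with DHT, and the 6 immune markers, of which CD68 alone was above 1 FPKM throughout, to 2.76 to 2.91 and 3.53 to 4.17 FPKM.

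Many genes changed with DHT, in nearly equal numbers up and down. Of 10446 genes tested in both measures, 1916 rose (18.3%) and 1780 fell (17.0%). These shares are the background for the counts of every list below. The lists and their members were chosen with earlier results of these data known. A share that differs from the background therefore describes a list and is no independent test of it. At least 2-fold in both measures, 316 genes rose (3.03%) and 345 fell (3.3%). The median difference over the 12180 genes tested by FPKM was -0.08, and the median absolute difference of the genes called was 0.58. The FPKM test alone called 3522 of 12180 genes higher (28.9%) and 5265 lower (43.2%), whereas after rescaling each sample by its median ratio it called 4333 higher and 4354 lower, and edgeR on counts alone called 2134 of 11004 higher (19.4%) and 1988 lower (18.1%). A further 47 genes passed both tests with opposite signs and were not called, of which 22 had exons overlapped on the opposite strand. In bulk RNA, a change in the number of cells that express a gene and a change in RNA per cell cannot be told apart.

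The classical androgen targets rose almost as a whole. Of 29 listed targets, 28 were tested in both measures, 26 rose and 1 fell, with a median difference of 2.41 over the members tested by FPKM (range -2.12 to 5.29). Of the 28, 6 (ADAM7, MAF, PTGER4, STEAP4, TRPM8 and HPGD) were below 1 FPKM in every vehicle sample and entered the FPKM test through the DHT samples. They did not enter it when any 1 DHT replicate was left out, and 20 targets then rose. KLK3, which encodes prostate-specific antigen (chr19:51358171-51364020, GRCh37), was at 276.5, 282 and 289 FPKM with vehicle and 1212, 1235 and 1327 FPKM with DHT. Every DHT sample lay above every vehicle sample, by 4.45-fold on average, and the difference was 2.15 ± 0.051 in FPKM (limma adjusted p = 4.92e-09) and 2.28 ± 0.083 in counts (edgeR adjusted p = 5.64e-17). The neighbouring protease gene KLK2 rose from 29.5 ± 0.64 to 219 ± 9.6 FPKM (SD, n = 3 per group, as for all values with ± in FPKM). TMPRSS2, a membrane serine protease whose promoter is often fused to ETS factors in prostate cancer, rose from 23.3 ± 1.0 to 170.1 ± 5.2 FPKM. Its exons are overlapped by MX1, which was itself at or below 0.81 FPKM on average in both groups.

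FKBP5, an Hsp90 co-chaperone of steroid receptors, had the largest difference by FPKM among the leading genes (chr6:35541362-35696360). It was at 9.21, 9.14 and 10.2 FPKM with vehicle and 400.4, 405 and 421 FPKM with DHT, 43-fold higher on average, and rested on 62, 69 and 46 reads with vehicle and on 2747, 2631 and 3115 reads with DHT. The difference was 5.29 ± 0.047 in FPKM (limma adjusted p = 7.03e-11) and 5.70 ± 0.11 in counts (edgeR adjusted p = 7.30e-22). SLC45A3, the prostate transporter known as prostein, was at 10.1, 10.3 and 9.57 FPKM with vehicle and 179, 178 and 178 FPKM with DHT, and every DHT sample was far above the vehicle samples. ABCC4, an efflux pump of cyclic nucleotides and prostanoids, was at 1.94, 2.22 and 2.001 FPKM with vehicle and 44.4, 43.4 and 41.8 FPKM with DHT. EAF2, a partner of the elongation factor ELL2, was at 2.51, 2.55 and 2.33 FPKM with vehicle and 48.98, 46.5 and 47.6 FPKM with DHT, and ELL2 itself rose from 3.89 ± 0.16 to 30.1 ± 1.2 FPKM. The groups did not overlap for any of these genes, which was required of the leading genes among them. Among metabolic targets, ACSL3, a long-chain acyl-CoA synthetase, rose from 29.1 ± 1.5 to 308 ± 2.4 FPKM and NDRG1, a stress-responsive gene, from 19.96 ± 0.28 to 191 ± 7.3 FPKM. PMEPA1, an inhibitor of TGF-beta signalling, rose from 19 ± 0.81 to 181 ± 3.9 FPKM. CAMKK2, a kinase upstream of AMPK, rose from 15.6 ± 0.19 to 53.6 ± 1.9 FPKM.

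The exception among the listed targets was ACPP, the gene of prostatic acid phosphatase. It was at 209, 207 and 210.2 FPKM with vehicle and 44.6, 47.5 and 49.5 FPKM with DHT, 4.42-fold lower on average, and the groups did not overlap. Its difference was -2.12 ± 0.045 in FPKM (limma adjusted p = 2.87e-09) and -2.14 ± 0.099 in counts (edgeR adjusted p = 5.50e-15). MED28, a Mediator subunit, had a difference of -0.46 and was not called, and NNMT, a methyltransferase of nicotinamide, was tested by FPKM only, with means of 0.223 FPKM with vehicle and 3.605 FPKM with DHT.

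**Figure D1:**
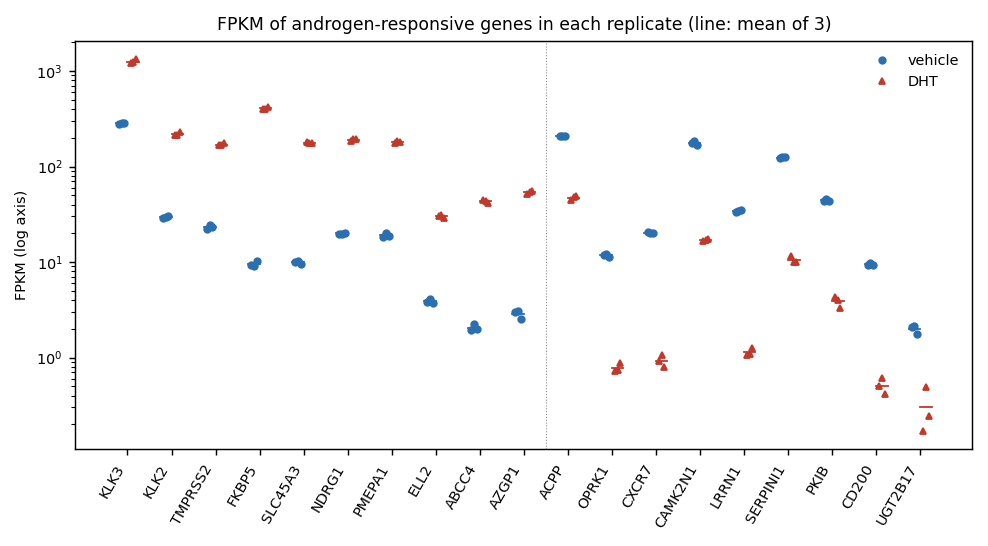
FPKM on a log axis for 10 genes that rose (left of the dotted line) and 9 genes lower with DHT (right), with 1 point per replicate, circles for vehicle, triangles for DHT and a line at each mean of 3. KLK3 lies at 276.5 to 289 FPKM with vehicle and 1212 to 1327 FPKM with DHT, and the groups do not overlap for any gene plotted; UGT2B17, at 1.997 and 0.304 FPKM on average, was tested by FPKM only.

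The promoters of the targets were searched for androgen response elements. RefSeq windows of 300 bases (GRCh38.p14, 250 before to 50 after a start site) were at hand for 21 of the 29 targets and for 8517 of the genes tested, some with several windows. The full palindrome, AGAACA and TGTTCT with 3 bases of any kind between them, was found on either strand in 0 of 12447 windows. Only exact matches were counted, so elements with mismatches, in KLK3 or elsewhere, were not looked for. The half-site AGAACA, searched on both strands and also contained in the palindrome, was found for 4 of the 21 targets (KLK3, FKBP5, PMEPA1 and TRPM8), or 19%, and for 12.1% of all genes tested (9.3% of windows). The stretch of the KLK3 promoter around it is shown because this gene is the reference readout of androgen action, with the half-site in capitals, which starts 170 bases before the start site.
KLK3, chr19:50854705-50854790, plus strand: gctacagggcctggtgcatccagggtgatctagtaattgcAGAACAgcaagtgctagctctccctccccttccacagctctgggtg

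Outside the list, the genes with the largest increases included several that were near 0 FPKM with vehicle. Of those given here, ST6GALNAC1, PGC, ORM1 and CHRNA2 were below 1 FPKM in every vehicle sample and entered the FPKM test through the DHT samples. ST6GALNAC1, the sialyltransferase that makes the sialyl-Tn antigen, was at 0.328, 0.307 and 0.323 FPKM with vehicle and 40.9, 43.01 and 44.8 FPKM with DHT. Only 3, 3 and 0 reads were counted on it with vehicle, against 384, 391 and 451 with DHT. MYBPC1, a myosin-binding protein of muscle, was at 0.792, 0.908 and 1.01 FPKM with vehicle and 58.5, 58.9 and 60.9 FPKM with DHT. Both genes were low in every vehicle sample and far higher in every DHT sample. PGC, the precursor of a gastric protease that is also made in the prostate, was at 0, 0.0477 and 0.108 FPKM with vehicle and 14.9, 15.7 and 17.4 FPKM with DHT. ORM1, an acute-phase plasma protein, was listed at 0 in 2 vehicle samples and at 0.0715 FPKM in the third, against 14.1, 17.6 and 18.7 FPKM with DHT. PGC and ORM1 had 0 reads in all 3 vehicle samples and 11 to 24 reads per DHT sample, so their size of change is poorly known. CHRNA2, a nicotinic receptor subunit, was at 0.0298, 0.0348 and 0.0433 FPKM with vehicle and 14.4, 14.96 and 15.2 FPKM with DHT, with 1 read in each vehicle sample. AZGP1, a secreted zinc-binding glycoprotein, was at 3.02, 3.06 and 2.54 FPKM with vehicle and 51.4, 53.8 and 55.2 FPKM with DHT. NCAPD3, a condensin II subunit whose exons are overlapped on the opposite strand, was at 9.35, 8.87 and 9.38 FPKM with vehicle and 181, 174 and 173 FPKM with DHT. None of these genes overlapped between the groups, a condition of the rule by which they were chosen.

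Among 20 genes listed as repressed by androgens, 7 were tested in both measures, 6 fell and 1 rose. The median difference of the members tested by FPKM was -1.21. The other 13 were too low in one or both measures, and OPRK1 among the 7 was below 1 FPKM in every DHT sample. OPRK1, the kappa opioid receptor, was at 11.96, 12.1 and 11.2 FPKM with vehicle and 0.7297, 0.742 and 0.884 FPKM with DHT. CXCR7, an atypical chemokine receptor now named ACKR3, was at 20.4, 20.1 and 20.2 FPKM with vehicle and 0.918, 1.05 and 0.801 FPKM with DHT. Both were near or below 1 FPKM in each DHT sample. SESN3, a stress-induced sestrin, was at 92.8, 88.01 and 88.99 FPKM with vehicle and 28.8, 26.9 and 25.4 FPKM with DHT, with no overlap. NOV, a matricellular protein, fell from 7.304 ± 0.19 to 1.78 ± 0.20 FPKM and CLU, the chaperone clusterin, from 6.24 ± 0.14 to 3.34 ± 0.35 FPKM.

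The steroid-conjugating UGT2B genes did not move together. UGT2B15, which inactivates DHT by glucuronidation, was at 0.767, 1.08 and 1.21 FPKM with vehicle and 0.247, 0.122 and 0.3497 FPKM with DHT and could not be tested in either measure. UGT2B17, its close relative, averaged 1.997 FPKM with vehicle and 0.304 FPKM with DHT, and was tested by FPKM only (-1.21 ± 0.10, limma adjusted p = 8.40e-06). UGT2B28 was at 0.0236, 0.0552 and 0.159 FPKM with vehicle and 2.62, 2.91 and 2.19 FPKM with DHT and rose, resting on the 3 DHT samples for its FPKM test, which it did not enter when any 1 of them was left out, and UGT2B11 averaged 0.324 FPKM with vehicle and 5.25 FPKM with DHT. These genes are close in sequence, so reads may have been shared between them by the counting.

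The largest decreases outside this list included genes that were near 1 FPKM or below it with DHT. LRRN1, a leucine-rich neuronal membrane protein, was at 33.4, 33.9 and 35.4 FPKM with vehicle and 1.07, 1.099 and 1.27 FPKM with DHT, 29.9-fold lower on average. SERPINI1, the protease inhibitor neuroserpin, was at 121.5, 125 and 126 FPKM with vehicle and 11.6, 10 and 9.97 FPKM with DHT. CAMK2N1, an inhibitor of the kinase CaMKII, was at 178, 184 and 168 FPKM with vehicle and 16.8, 17.1 and 17.3 FPKM with DHT. All 3 genes had separate groups, a condition of the rule by which they were chosen, and CAMK2N1 fell by 3.30 in FPKM and by 3.27 in counts. PKIB, an inhibitor of protein kinase A, was at 43.6, 45.4 and 43.6 FPKM with vehicle and 4.32, 4.04 and 3.31 FPKM with DHT. GOLIM4, a Golgi membrane protein, was at 153, 151 and 171 FPKM with vehicle and 21.8, 22.5 and 22.7 FPKM with DHT. MATN2, a matrix protein, IL1RN, the interleukin-1 receptor antagonist, and CD200, a surface glycoprotein that restrains myeloid cells, had means of 12.9, 14.3 and 9.46 FPKM with vehicle and 0.707, 0.9 and 0.506 FPKM with DHT; all 3 were below 1 FPKM in every DHT sample and entered the FPKM test through the vehicle samples. In all, 1709 genes higher and 1243 genes lower with DHT met the conditions from which these leading genes were taken. These were 2952 of the 3696 genes called among 10446 tested. Groups without overlap were therefore common among called genes and are not particular to the genes named here.

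Genes that androgens share with glucocorticoids changed in both directions, more of them upward. Of 14 listed, 11 were tested in both measures, 6 rose (54.5%) and 2 fell (18.2%), against 18.3% and 17.0% of all genes tested. The median difference was 0.21. NR3C1, the glucocorticoid receptor gene, was close to 0, at 0.00358 FPKM with vehicle and 0.00853 FPKM with DHT on average. SGK1, a kinase that regulates ion channels, was at 1.01, 1.23 and 1.18 FPKM with vehicle and 18.2, 18.8 and 18.3 FPKM with DHT. ERRFI1, a feedback inhibitor of EGFR, was at 6.15, 6.01 and 5.701 FPKM with vehicle and 28.7, 29.1 and 30.3 FPKM with DHT. Both rose in every DHT sample, as did ZBTB16, a zinc finger repressor (5.69 ± 0.37 to 26.1 ± 1.3 FPKM). TSC22D3, the glucocorticoid-induced leucine zipper, went the other way at 58.6, 63.4 and 63.4 FPKM with vehicle and 13.8, 14 and 15.4 FPKM with DHT. MT2A, a metallothionein, fell from 93.9 ± 0.88 to 47.5 ± 4.1 FPKM, while DUSP1, KLF9 and SCNN1A had differences of -0.29, 0.04 and -0.19 and were not called.

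Genes of protein folding in the endoplasmic reticulum (ER) and of the unfolded protein response rose as a block. All 27 listed members were tested in both measures, 23 rose and 1 fell, and the median difference was 0.73 (range -0.35 to 1.96). None of the 27 was below 1 FPKM in a whole group. In the ER, chaperones such as BiP (HSPA5) and GRP94 (HSP90B1) fold secretory proteins, disulfide isomerases pair their cysteines, and the sensors IRE1 (ERN1), PERK (EIF2AK3) and ATF6 answer to misfolded protein. HSPA5 was at 136, 147 and 146 FPKM with vehicle and 213, 214.5 and 221 FPKM with DHT, with a difference of 0.59 ± 0.044 (limma adjusted p = 4.31e-06, edgeR adjusted p = 2.74e-07). XBP1, the factor that ERN1 splices, was at 53.2, 54.4 and 49.5 FPKM with vehicle and 79.2, 75.4 and 75 FPKM with DHT. ERN1 was at 3.72, 3.57 and 3.56 FPKM with vehicle and 12.5, 11.7 and 12.4 FPKM with DHT. For all 3 genes each DHT sample lay above each vehicle sample. The sensors EIF2AK3 and ATF6 had differences of 0.34 and 0.05 and were not called.

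The increases were largest for PDIA5, a disulfide isomerase, at 62.7, 60.8 and 63.5 FPKM with DHT against 15.6, 15.4 and 14.99 FPKM with vehicle, and for DNAJB9, an HSPA5 co-chaperone, at 19.8, 17.5 and 18.1 FPKM with DHT against 5.08, 5.64 and 5.59 FPKM with vehicle. DNAJC10, a co-chaperone with reductase activity, was at 30.4, 29.3 and 28.9 FPKM with DHT against 10.1, 10.6 and 10.8 FPKM with vehicle. In each case the groups were well apart. The most abundant members rose by less: HSP90B1 went from 333 ± 14.4 to 554 ± 4.6 FPKM, P4HB, the main disulfide isomerase, from 348 ± 9.7 to 517 ± 19.6 FPKM, and CALR, the lectin chaperone calreticulin, from 489 ± 21.9 to 617 ± 29.1 FPKM. MANF, a secreted ER stress factor, rose from 108 ± 6.2 to 265 ± 11.2 FPKM, and the membrane-bound factors CREB3L2 and CREB3L4 from 10.8 ± 0.25 to 22.8 ± 0.12 FPKM and from 35.3 ± 1.8 to 90.7 ± 2.0 FPKM. EDEM1, which hands misfolded glycoproteins to degradation, was the only member to fall (37.9 ± 0.90 to 29.6 ± 2.1 FPKM), and its call was lost when vehicle replicate 1 or DHT replicate 2 or 3 was left out (edgeR adjusted p up to 0.0981).

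Several of these genes carry the ER stress response element, CCAAT and CCACG with 9 bases of any kind between them, in their promoter windows. Searched on both strands, it was found for 7 of the 26 members with a window (26.9%) and for 15 of the 8517 genes tested (0.176%), and all 7 members, XBP1, HSPA5, HSP90B1, PDIA6, CALR, CANX and CRELD2, rose. The list was written from known genes of this response, several of them known for this element, so the share describes the list and is no independent test. Stretches of 5 of these promoters (GRCh38.p14, RefSeq) show the element in capitals, on the strand of the gene; CALR and CRELD2 carry it in reverse, and of a pair of matches in HSP90B1 only the first is shown.
HSPA5, chr9:125241351-125241449, minus strand: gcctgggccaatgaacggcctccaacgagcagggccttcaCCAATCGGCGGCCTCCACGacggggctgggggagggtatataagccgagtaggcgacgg
XBP1, chr22:28800563-28800661, minus strand: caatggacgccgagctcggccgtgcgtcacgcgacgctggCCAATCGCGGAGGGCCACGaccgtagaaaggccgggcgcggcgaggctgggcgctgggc
HSP90B1, chr12:103930176-103930274, plus strand: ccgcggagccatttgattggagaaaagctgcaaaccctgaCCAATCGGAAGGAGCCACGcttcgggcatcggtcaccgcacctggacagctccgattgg
CALR, chr19:12938359-12938442, plus strand: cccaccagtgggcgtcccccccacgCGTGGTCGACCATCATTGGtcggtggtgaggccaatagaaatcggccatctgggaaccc
CRELD2, chr22:49918514-49918612, plus strand: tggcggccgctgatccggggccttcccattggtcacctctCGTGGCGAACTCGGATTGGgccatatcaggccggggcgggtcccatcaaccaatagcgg

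The route from the ER to the Golgi followed the same direction. Of 35 listed genes of secretory transport, 34 were tested in both measures, 27 rose and 1 fell, with a median difference of 0.48. Of the coats, SEC24D, which selects COPII cargo, was at 5.12, 5.45 and 5.901 FPKM with vehicle and 23.7, 22.5 and 21.7 FPKM with DHT. Its partner SEC23A, the GTPase activator of the same coat, was at 33.3, 34.96 and 32.8 FPKM with vehicle and 21.9, 19.8 and 19.9 FPKM with DHT and was the member that fell, while its paralogue SEC23B rose from 50.97 ± 2.7 to 84.99 ± 1.5 FPKM. The 2 paralogues therefore moved in opposite directions. COPB1, a subunit of the COPI coat of return vesicles, rose from 45.6 ± 0.46 to 57.8 ± 2.9 FPKM. In the translocon, SSR3, a translocon-associated subunit, was at 40.4, 40.7 and 37.7 FPKM with vehicle and 122, 115 and 111.5 FPKM with DHT, and SSR1 and the signal recognition receptor subunit SRPRB rose from 15.6 ± 0.70 to 34.05 ± 1.7 FPKM and 17.3 ± 1.2 to 35.98 ± 1.3 FPKM. The cargo receptor LMAN1 rose from 36.8 ± 0.82 to 69.3 ± 3.9 FPKM and KDELR2, which returns ER proteins, from 51.1 ± 1.5 to 92 ± 2.7 FPKM.

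In protein glycosylation 14 of 28 members rose and 3 fell (median 0.37). The supply of nucleotide sugars rose at UAP1, which makes UDP-N-acetylglucosamine and was at 51, 53.04 and 53.4 FPKM with vehicle and 167, 162 and 162 FPKM with DHT, at UGDH (20.5 ± 0.17 to 48.2 ± 0.57 FPKM) and at NANS, which makes sialic acid (52.1 ± 0.81 to 137 ± 8.2 FPKM). Sialyltransferases rose as well, ST6GALNAC1 as given above and ST6GAL1 from 4.43 ± 0.21 to 13.4 ± 0.54 FPKM, and so did GCNT1, which branches O-glycans, at 21.9, 20.9 and 20.9 FPKM with DHT against 6.997, 7.598 and 7.51 FPKM with vehicle. The initiating O-glycosylation enzymes differed among themselves. GALNT3 was at 21.7, 21.9 and 21.5 FPKM with vehicle and 6.42, 5.78 and 5.78 FPKM with DHT and GALNT10 fell from 10.7 ± 0.62 to 5.14 ± 0.20 FPKM, GALNT7 rose from 11.3 ± 0.23 to 21.9 ± 0.83 FPKM, and GALNT1 and GALNT2 had differences of -0.08 and -0.21 and were not called. C1GALT1, which extends the first sugar, fell from 2.75 ± 0.22 to 1.53 ± 0.092 FPKM.

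Lipid synthesis genes rose in both branches. Cholesterol is made from acetyl-CoA through squalene under the control of SREBF2, which SCAP escorts and INSIG1 retains in the ER. Of 26 listed cholesterol genes, 24 were tested in both measures, 15 rose and 1 fell, with a median difference of 0.53. FDFT1, squalene synthase, was at 59.1, 65.7 and 59.1 FPKM with vehicle and 122, 118.5 and 126 FPKM with DHT. INSIG1 was at 26.7, 27.04 and 27.7 FPKM with vehicle and 47.5, 48.2 and 47.5 FPKM with DHT, and SREBF2 at 37.3, 35.8 and 34.5 FPKM with vehicle and 58.2, 59.7 and 59.04 FPKM with DHT. Each of the 3 was higher in every DHT sample, by 1.99-, 1.76- and 1.64-fold in means of FPKM. SQLE, squalene epoxidase, was at 13.1, 13.9 and 14.4 FPKM with vehicle and 16, 15.03 and 15.9 FPKM with DHT and was not called (limma adjusted p = 0.0115, edgeR adjusted p = 0.175). TM7SF2, a sterol reductase, was at 149, 149.7 and 146.5 FPKM with vehicle and 65.2, 66.7 and 69.9 FPKM with DHT and fell. The sterol response element TCACNCCAC was found on either strand for 1 of the 19 members with a promoter window (SREBF2, 5.26%) and for 1.51% of all genes tested.

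Of 20 genes of fatty acid synthesis and desaturation, 17 were tested in both measures, 12 rose and none fell in both (median 0.35). FASN, fatty acid synthase, was at 170.5, 168 and 162 FPKM with vehicle and 487.5, 496 and 486 FPKM with DHT. ELOVL7, an elongase of saturated chains, was at 9.88, 11 and 10.1 FPKM with vehicle and 62.1, 56.8 and 54.97 FPKM with DHT, and ELOVL5, an elongase of polyunsaturated chains, at 39.3, 41.7 and 39.8 FPKM with vehicle and 162.5, 159 and 161 FPKM with DHT. These 3 genes were 2.94-, 5.62- and 3.99-fold higher with DHT in means of FPKM, with no overlap. ACACA, which makes malonyl-CoA, rose from 35.5 ± 0.17 to 100.4 ± 3.7 FPKM, FADS2, a desaturase overlapped on the opposite strand, from 50.2 ± 1.4 to 151 ± 1.9 FPKM, and SCD, the stearoyl desaturase, from 169 ± 1.9 to 208.5 ± 5.3 FPKM. ELOVL6 had a difference of -0.81 and GPAM, the first enzyme of triglyceride synthesis, of -0.52, and neither was called.

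Genes of amino acid supply and tRNA charging rose for the most part. ATF4 drives many of them when amino acids are short. Of 33 members, 32 were tested in both measures, 24 rose and 1 fell, with a median difference of 0.42 (range -0.45 to 1.15). ATF4 was at 142, 143 and 150.4 FPKM with vehicle and 198, 202 and 218 FPKM with DHT. ASNS, asparagine synthetase, was at 60.2, 65.4 and 61.1 FPKM with vehicle and 95.99, 95.4 and 94.3 FPKM with DHT, and PYCR1, which makes proline, at 79.8, 80.1 and 80.7 FPKM with vehicle and 153, 155 and 167.5 FPKM with DHT. The groups were separate in all 3 genes, at under 2-fold. SLC1A5, the glutamine transporter, rose from 49.9 ± 3.3 to 96.2 ± 1.3 FPKM, and SLC7A11, the cystine transporter, from 9.71 ± 0.55 to 22.8 ± 2.5 FPKM, with exons overlapped on the opposite strand. SLC7A5, the large neutral amino acid transporter, was at 1.96, 2.003 and 2.04 FPKM with vehicle and 1.25, 1.33 and 1.14 FPKM with DHT and was tested by FPKM only. Of 12 listed tRNA synthetases, 11 rose, led by GARS (54.5 ± 2.2 to 103.5 ± 3.1 FPKM), and LARS was not called (0.17). The regulators in the list were mixed, as 3 of 7 rose, 1 fell and 3 were not called (median 0.27). DDIT4 fell from 96.4 ± 2.1 to 73.9 ± 1.5 FPKM, and DDIT3, TRIB3 and SESN2 had differences of -0.38, 0.28 and -0.45 and were not called.

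The core of the amino acid response element, TGATGCAA, was found on either strand in the promoter windows of 9 of the 27 members with a window (33.3%) and of 56 of the 8517 genes tested (0.658%). Of the 9, 8 rose (CHAC1, SLC1A5, AARS, CARS, IARS, MARS, NARS and TARS) and SLC1A4 was not called. As with the ER genes, this list was written from genes known for the response. The promoter stretches of CHAC1, which degrades glutathione, and of 4 synthetases are shown with the core in capitals, all in reverse (GRCh38.p14, RefSeq).
CHAC1, chr15:40953222-40953309, plus strand: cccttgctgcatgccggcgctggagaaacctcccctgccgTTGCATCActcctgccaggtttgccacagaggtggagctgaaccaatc
AARS, chr16:70289646-70289733, minus strand: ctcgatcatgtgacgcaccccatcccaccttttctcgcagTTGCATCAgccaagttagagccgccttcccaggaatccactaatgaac
IARS, chr9:92293663-92293750, minus strand: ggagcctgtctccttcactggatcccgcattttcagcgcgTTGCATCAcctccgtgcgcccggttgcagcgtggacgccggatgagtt
MARS, chr12:57488024-57488111, plus strand: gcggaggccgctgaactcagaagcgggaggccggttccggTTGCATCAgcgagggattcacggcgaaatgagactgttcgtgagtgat
TARS, chr5:33440927-33441014, plus strand: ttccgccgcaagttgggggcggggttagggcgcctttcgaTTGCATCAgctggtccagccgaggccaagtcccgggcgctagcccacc

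Polyamine genes included abundant transcripts with large differences. Prostate epithelium is known to export spermine into seminal fluid. Of 13 members, 11 were tested in both measures, 6 rose and 1 fell (median 0.48). SMS, spermine synthase, was at 84.7, 91.4 and 95.9 FPKM with vehicle and 743, 769 and 794 FPKM with DHT, 8.48-fold higher in means. ODC1, the rate-limiting decarboxylase, was at 179, 189 and 199.6 FPKM with vehicle and 508, 502 and 517 FPKM with DHT. SAT1, which acetylates polyamines for export and breakdown, was at 15.3, 18.98 and 17.8 FPKM with vehicle and 88.1, 86.1 and 94.5 FPKM with DHT. Synthesis and breakdown genes thus both had members that rose, without overlap between the groups. SRM, spermidine synthase, rose from 72.9 ± 0.85 to 155 ± 11.9 FPKM. PAOX, a polyamine oxidase, fell from 3.89 ± 0.27 to 2.12 ± 0.28 FPKM, and its call was lost without vehicle replicate 1 or 3 or DHT replicate 1 or 2 (edgeR adjusted p up to 0.144).

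Of 25 glycolysis and lactate genes, 23 were tested in both measures, 10 rose and 1 fell, with a median difference of 0.13. MPC2, a subunit of the mitochondrial pyruvate carrier with exons overlapped on the opposite strand, was at 41.7, 42.6 and 45.9 FPKM with vehicle and 167, 164.5 and 172 FPKM with DHT, and its partner MPC1 had a difference of -0.40 and was not called. Hexokinase HK2 rose from 2.82 ± 0.058 to 7.29 ± 0.54 FPKM, the glucose transporter SLC2A1 from 9.37 ± 0.18 to 16.7 ± 0.63 FPKM and LDHA, lactate dehydrogenase A, from 115.6 ± 8.3 to 204 ± 2.0 FPKM, while the aldolase ALDOC fell from 34.1 ± 0.72 to 19.96 ± 0.99 FPKM. PFKFB2, which makes the activator of phosphofructokinase, rose from 7.06 ± 0.33 to 10.6 ± 0.68 FPKM, a call lost without DHT replicate 1 or vehicle replicate 3 (edgeR adjusted p up to 0.0779). In the citric acid cycle 6 of 24 members rose (25%) and 3 fell (12.5%), against 18.3% and 17.0% of all genes tested. The median was -0.03, or 0.05 after rescaling of FPKM. Without DHT replicate 1 or vehicle replicate 2, and with the DESeq2 Wald test, 1 fell. IDH1, the cytosolic isocitrate dehydrogenase, was the member with the largest rise, at 53.03, 52.97 and 52.8 FPKM with vehicle and 189, 186 and 188.5 FPKM with DHT. ACO1, the cytosolic aconitase, fell from 20.4 ± 0.27 to 12.1 ± 0.21 FPKM. The list thus counts cytosolic enzymes beside those of the mitochondrial cycle. SDHA, of complex II, fell from 61.8 ± 2.2 to 44.9 ± 1.7 FPKM, a call lost without DHT replicate 1 or vehicle replicate 2 (edgeR adjusted p up to 0.132). IDH3A, overlapped on the opposite strand, had a difference of -0.10 and was not called. Among 24 subunits of oxidative phosphorylation none was called in both measures, and their differences ran from -0.43 to 0.16 (median -0.11). ATP5B, the catalytic subunit of ATP synthase, was at 580.0, 606 and 563 FPKM with vehicle and 535, 491 and 492 FPKM with DHT, and NDUFA4 at 73.8, 79.9 and 73.6 FPKM with vehicle and 62.4, 52.7 and 53.1 FPKM with DHT. These 2 were lower in every DHT sample but failed the count test (edgeR adjusted p = 0.234 and 0.238); ATP5B passed it without vehicle replicate 3, with a difference of -0.23.

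**Figure D2:**
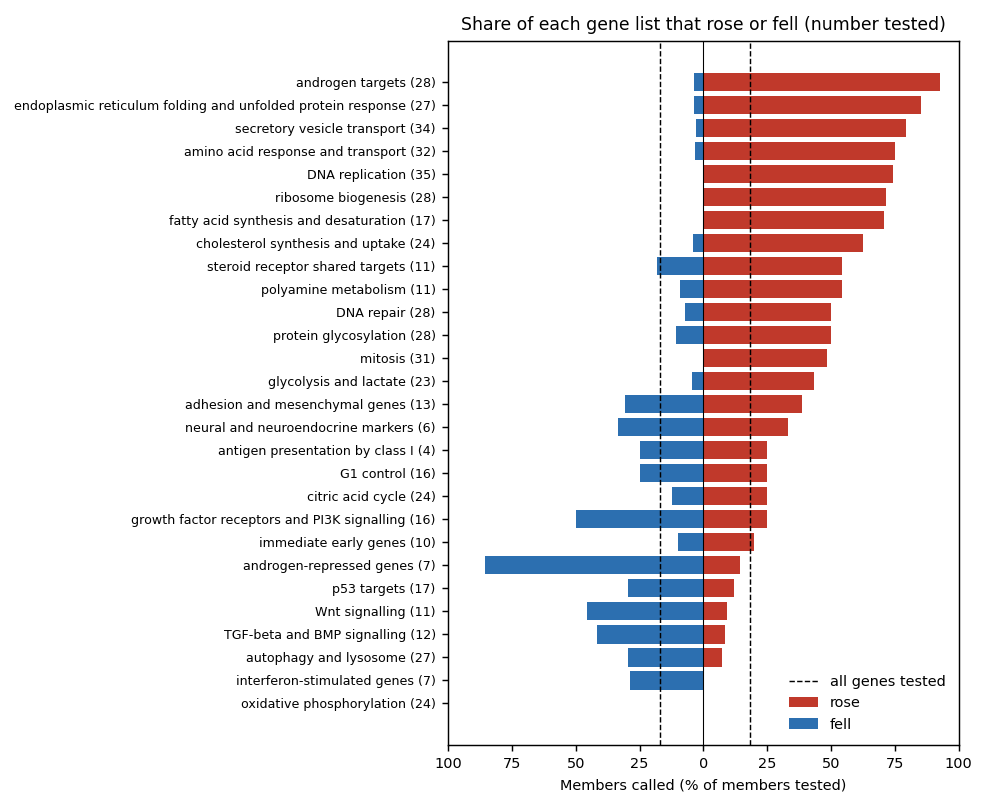
Share of the tested members of 28 gene lists that rose (red, to the right) or fell (blue, to the left) in both measures, in percent, with the number tested in brackets and dashed lines at the shares of all 10446 genes tested (18.3% and 17.0%). Androgen targets (26 of 28 rose) and ER folding genes (23 of 27) are at the top, and oxidative phosphorylation (0 of 24) is at the bottom.

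Ribosome biogenesis rose without a member that fell. Of 28 members, 20 rose in both measures (median 0.56). MYC, the growth factor-responsive activator of these genes, was at 64.4, 67.1 and 67.9 FPKM with vehicle and 93.9, 97.5 and 105 FPKM with DHT. NCL, nucleolin, was at 194, 209 and 215 FPKM with vehicle and 364.5, 374 and 398 FPKM with DHT, and DDX21, a nucleolar helicase, at 37.4, 37.2 and 38.4 FPKM with vehicle and 81.1, 77.3 and 79.4 FPKM with DHT. Each of these 3 genes was higher in every DHT sample. NOP56 and the overlapped NOP16 rose from 62.2 ± 1.8 to 119 ± 6.8 FPKM and from 23.4 ± 1.2 to 52.2 ± 2.1 FPKM, whereas the polymerase I factors UBTF and RRN3 had differences of -0.14 and -0.03 and were not called.

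DNA replication genes had the highest median of the growth lists. Of 36 members, 35 were tested in both measures, 26 rose and none fell, with a median of 0.86 (range -0.04 to 1.97). Replication is licensed by loading the MCM helicase at origins with CDC6 and CDT1, and geminin (GMNN) restrains the loading. CDC6 was at 4.78, 5.86 and 5.46 FPKM with vehicle and 23.9, 23.5 and 23.98 FPKM with DHT. MCM2 was at 15.1, 14.9 and 14.7 FPKM with vehicle and 31.2, 31.2 and 32.3 FPKM with DHT, and MCM3, MCM4, MCM5, MCM6 and the overlapped MCM7 also rose, with differences of 0.76 (MCM6) to 1.36 (MCM5). GMNN was at 7.698, 10.2 and 8.99 FPKM with vehicle and 37.7, 34.4 and 37.6 FPKM with DHT, so both the licensing factors and their inhibitor were higher with DHT in every sample. At the fork, PCNA, the sliding clamp, was at 33.05, 34.4 and 36.99 FPKM with vehicle and 71.2, 71.04 and 76.03 FPKM with DHT, and FEN1, the flap endonuclease, at 10.4, 11.1 and 10.3 FPKM with vehicle and 34.5, 30.3 and 34.7 FPKM with DHT. RRM2, the regulated subunit of ribonucleotide reductase, was at 8.28, 9.75 and 8.84 FPKM with vehicle and 29.2, 28.04 and 29.02 FPKM with DHT. PCNA shares its locus with an antisense gene, PCNA-AS1, listed at 38.4 and 79.4 FPKM on average with vehicle and DHT. Summed over the vehicle samples in stripped serum, 181 reads were counted on PCNA and 624 on PCNA-AS1. In vehicle samples of the same line in full serum, these sums were 9577 and 0. The gene models gave no exon overlap for this pair, so PCNA was not marked as overlapped, but the limit on strands applies to its counts. The E2F site, taken as TTTGGCGC or TTTCCCGC on either strand, was found for 16 of the 32 members with a promoter window (50%) and for 4.73% of the genes tested, and of the 16, 12 rose and 4 were not called (GINS3, POLE, POLE2 and TYMS). The list holds known E2F targets. Promoter stretches of 4 members that rose are shown with the site in capitals, at both matches in MCM6 and in reverse in PCNA and GINS2 (GRCh38.p14, RefSeq).
CDC6, chr17:40287846-40287928, plus strand: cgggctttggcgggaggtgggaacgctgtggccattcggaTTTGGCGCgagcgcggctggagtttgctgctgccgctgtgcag
MCM6, chr2:135876486-135876635, minus strand: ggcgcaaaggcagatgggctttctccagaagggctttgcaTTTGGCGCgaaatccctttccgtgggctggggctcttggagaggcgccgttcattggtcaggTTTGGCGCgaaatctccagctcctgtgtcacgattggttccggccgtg
PCNA, chr20:5126634-5126721, minus strand: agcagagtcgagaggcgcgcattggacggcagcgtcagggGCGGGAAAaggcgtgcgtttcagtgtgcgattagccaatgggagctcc
GINS2, chr16:85688938-85689025, minus strand: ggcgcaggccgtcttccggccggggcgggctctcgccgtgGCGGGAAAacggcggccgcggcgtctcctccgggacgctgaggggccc

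Of 34 mitotic genes, 31 were tested in both measures, 15 rose and none fell (median 0.41); with an equal-variance test on variance-stabilised counts 7 rose. CDK1, the mitotic kinase, was at 29.2, 33.3 and 29.4 FPKM with vehicle and 78.6, 71.3 and 73.95 FPKM with DHT. MKI67, the proliferation marker Ki-67, was at 7.65, 7.57 and 7.91 FPKM with vehicle and 16.4, 17.3 and 16.2 FPKM with DHT. ZWINT, a kinetochore protein, was at 18.6, 19.5 and 18.7 FPKM with vehicle and 39.9, 38.6 and 38.4 FPKM with DHT, and these 3 genes had separate groups. TOP2A, topoisomerase II alpha, rose from 10.8 ± 0.34 to 13.3 ± 0.41 FPKM, a call lost without vehicle replicate 1 or DHT replicate 1 (edgeR adjusted p up to 0.0692), and AURKB, a kinase of the chromosomal passenger complex, from 4.14 ± 0.57 to 8.82 ± 0.65 FPKM, lost without vehicle replicate 1 or 3 or DHT replicate 1 or 2 (edgeR adjusted p up to 0.181). UBE2C was at 17.9, 17.98 and 21.1 FPKM with vehicle and 29.4, 31.6 and 35.3 FPKM with DHT and was not called (edgeR adjusted p = 0.271), and CCNB1, PLK1 and AURKA had differences of 0.04, 0.26 and 0.10 and were not called either.

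Regulators of G1 split, with 4 of 16 tested members up and 4 down (25% each, median -0.14), against 18.3% and 17.0% of all genes tested. The balance changed under several alternatives. E2F1 was at 8.03, 8.51 and 7.96 FPKM with vehicle and 18.4, 17.97 and 18.3 FPKM with DHT and CDC25A, the phosphatase that activates CDK2, at 3.26, 3.51 and 3.65 FPKM with vehicle and 10.9, 10.96 and 10.8 FPKM with DHT. The CDK inhibitors CDKN1A and CDKN1B, which encode p21 and p27, were at 55.7, 56.8 and 54.02 FPKM with vehicle and 33.2, 35.7 and 40.3 FPKM with DHT and at 29.1, 32.7 and 31.3 FPKM with vehicle and 21.3, 19.9 and 18.7 FPKM with DHT. Both inhibitors were lower in every DHT sample and both activators higher. CCND1, cyclin D1, was at 80.2, 84.1 and 82.3 FPKM with vehicle and 73.2, 72.7 and 74.9 FPKM with DHT and was not called (edgeR adjusted p = 0.867).

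In DNA repair 14 of 28 tested members rose and 2 fell (31 listed, median 0.42), and with the test on variance-stabilised counts 5 rose. Of the 28, BRCA2 was below 1 FPKM in every vehicle sample and entered the FPKM test through the DHT samples. In homologous recombination, BRCA1 rose from 2.76 ± 0.24 to 7.16 ± 0.37 FPKM, whereas BARD1, the partner of BRCA1, fell. BARD1 was at 77.5, 73 and 78.4 FPKM with vehicle and 26.6, 25.4 and 24.5 FPKM with DHT, the reverse of BRCA1 in every sample. PMS2, a mismatch repair gene with several pseudogenes that may share its reads, fell from 28.4 ± 1.6 to 13.3 ± 0.32 FPKM. RAD54B rose from 2.48 ± 0.21 to 6.61 ± 0.87 FPKM, a call lost without DHT replicate 1 or 2 or vehicle replicate 2 or 3 (edgeR adjusted p up to 0.317), and PRKDC from 33.1 ± 1.5 to 39.6 ± 4.1 FPKM, lost without DHT replicate 1 or any vehicle replicate (edgeR adjusted p up to 0.264). Of 20 p53 targets, 17 were tested in both measures, 2 rose and 5 fell (median -0.38). TP53INP1 was at 86, 86.1 and 82.6 FPKM with vehicle and 24.2, 21.9 and 20.7 FPKM with DHT, and BTG2, an antiproliferative gene, fell from 20.8 ± 0.73 to 9.05 ± 0.33 FPKM and PLK3 from 7.53 ± 0.62 to 2.77 ± 0.13 FPKM. TNFRSF10B, a death receptor with exons overlapped on the opposite strand, was at 33.2, 33.7 and 32.1 FPKM with vehicle and 92.4, 90.98 and 89.1 FPKM with DHT and rose, as did the exonuclease AEN (6.94 ± 0.27 to 13.4 ± 0.43 FPKM). MDM2 was at 22.8, 22.4 and 22.1 FPKM with vehicle and 20.1, 19.2 and 17.9 FPKM with DHT and was not called (edgeR adjusted p = 0.483).

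**Figure D3:**
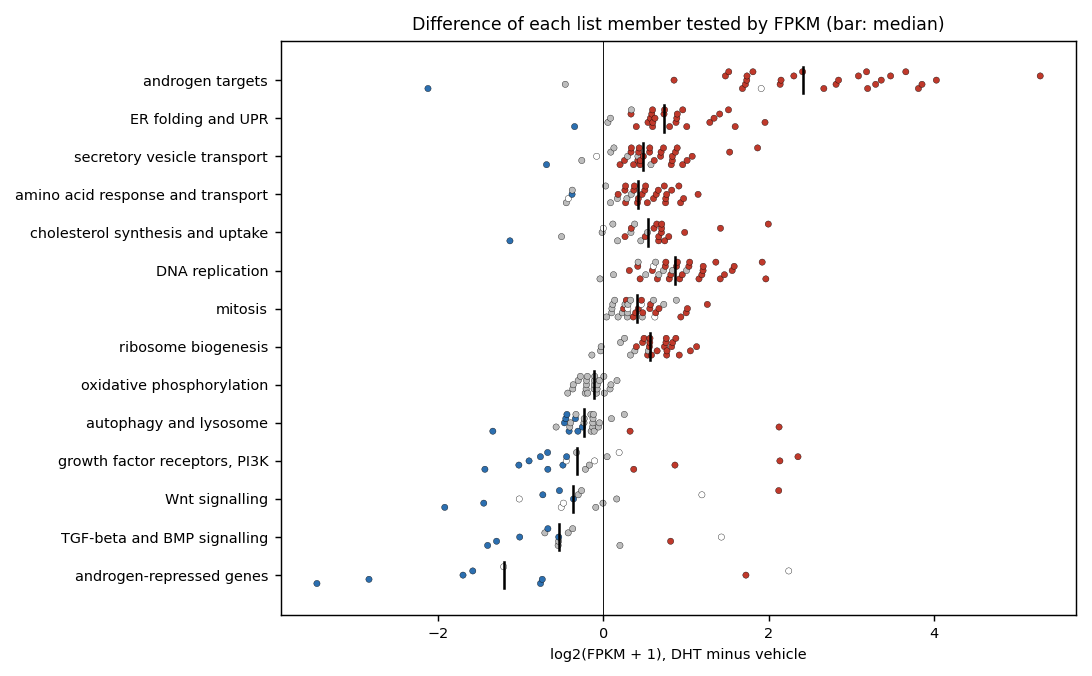
Difference of each list member tested by FPKM, on the log2(FPKM + 1) scale, DHT minus vehicle, for 14 lists, with red points for genes that rose, blue for genes that fell, grey for genes not called, white for genes tested by FPKM only and a bar at the list's median. The medians run from 2.41 for androgen targets to -1.21 for androgen-repressed genes, and oxidative phosphorylation lies close to 0 (median -0.11).

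Signalling lists leaned the other way. Of 24 growth factor receptors and PI3K genes, 16 were tested in both measures, 4 rose and 8 fell (median -0.32). ERBB2, the HER2 receptor, whose exons are overlapped on the opposite strand, was at 41.5, 41.7 and 42.8 FPKM with vehicle and 14.5, 14.8 and 15.5 FPKM with DHT. IGF1R, the receptor of insulin-like growth factors, was at 5.78, 5.58 and 5.31 FPKM with vehicle and 29.04, 28.4 and 26.1 FPKM with DHT. The 2 receptors therefore changed in opposite directions, each without overlap between the groups. INPP4B, a phosphatase that limits PI3K signalling, was at 0.0903, 0.0587 and 0.0548 FPKM with vehicle and 4.27, 4.74 and 4.402 FPKM with DHT. INPP4B and the insulin receptor substrate IRS2 (0.693 ± 0.085 to 2.09 ± 0.14 FPKM) were below 1 FPKM in every vehicle sample and entered the FPKM test through the DHT samples, so that they did not enter it when any 1 DHT replicate was left out, and 2 members then rose. Without DHT replicate 1, and with the DESeq2 Wald test, 5 fell. PIK3R3, a regulatory subunit of PI3K, was at 40.9, 41.6 and 41.1 FPKM with vehicle and 20.9, 19.2 and 19.2 FPKM with DHT, and the catalytic subunits PIK3CA and PIK3CB fell from 5.54 ± 0.46 to 3.097 ± 0.11 FPKM and from 24.5 ± 0.35 to 14.1 ± 0.59 FPKM. IGFBP3, a binding protein of insulin-like growth factors, fell from 466 ± 30.2 to 249 ± 18.8 FPKM.

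Of 20 Wnt genes, 11 were tested in both measures, 1 rose and 5 fell (median -0.36); 2 fell without vehicle replicate 1 and 3 without DHT replicate 1 or with the DESeq2 Wald test. WNT5A, a ligand of the non-canonical pathway, was at 38.8, 38.9 and 37.7 FPKM with vehicle and 9.19, 9.76 and 9.33 FPKM with DHT. Among receptors, FZD3 was at 4.67, 4.18 and 4.65 FPKM with vehicle and 1.07, 0.991 and 0.983 FPKM with DHT and FZD5 at 1.35, 1.39 and 1.49 FPKM with vehicle and 9.45, 9.51 and 9.52 FPKM with DHT. The receptor that rose and the receptor that fell both had separate groups. AXIN2, a canonical target, fell from 2.34 ± 0.33 to 1.004 ± 0.020 FPKM, a call lost without vehicle replicate 1 or DHT replicate 1 (edgeR adjusted p up to 0.0792). Of 21 TGF-beta and BMP genes, 12 were tested in both measures, 1 rose and 5 fell (median -0.54); without vehicle replicate 1 or 3, 2 rose and 3 fell, and without vehicle replicate 2, 3 rose. SMAD3, a signal transducer of TGF-beta, was at 5.77, 6.404 and 5.92 FPKM with vehicle and 1.72, 1.65 and 1.62 FPKM with DHT, and SMAD7, the inhibitory SMAD, fell from 5.73 ± 0.44 to 2.33 ± 0.25 FPKM. INHBB, a subunit of activin B, was at 2.23, 2.53 and 2.095 FPKM with vehicle and 0.362, 0.325 and 0.326 FPKM with DHT, below 1 FPKM in every DHT sample. BMPR1A, a type I BMP receptor, was the member that rose (6.86 ± 0.15 to 12.8 ± 0.22 FPKM). ID1, a BMP target, fell from 31.6 ± 3.4 to 19.5 ± 1.8 FPKM, a call lost without vehicle replicate 1 or 3 or DHT replicate 1 (edgeR adjusted p up to 0.144), and SMAD6 was at 6.36, 6.51 and 7.104 FPKM with vehicle and 4.22, 4.25 and 5.74 FPKM with DHT and was not called (edgeR adjusted p = 0.209); without DHT replicate 3 it was, with a difference of -0.55.

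In autophagy and lysosome 2 of 27 members rose (7.4%) and 8 fell (29.6%), against 18.3% and 17.0% of all genes tested (median -0.23). Only 5 fell without vehicle replicate 1 or 2, and 3 with the DESeq2 Wald test. NPC1, the lysosomal cholesterol exporter, was at 26.9, 27.1 and 27.1 FPKM with vehicle and 10.6, 10.2 and 9.46 FPKM with DHT, and WIPI1, an autophagy factor overlapped on the opposite strand, at 2.79, 2.69 and 2.91 FPKM with vehicle and 15.1, 15.3 and 16.2 FPKM with DHT. These 2 members had the largest differences in each direction, -1.34 ± 0.047 and 2.13 ± 0.048. SQSTM1, the autophagy receptor p62, fell from 104 ± 0.75 to 87.3 ± 0.43 FPKM and LAMP2, a lysosomal membrane protein, from 56.3 ± 3.0 to 41.2 ± 2.1 FPKM. ATP6V0D1 rose from 64.9 ± 1.8 to 81.4 ± 3.3 FPKM and ATP6V1A, of the same proton pump, fell from 46.3 ± 1.6 to 33.5 ± 1.7 FPKM; the first call was lost without DHT replicate 3 (edgeR adjusted p = 0.0622), and the second without vehicle replicate 1 or DHT replicate 2 or 3 (edgeR adjusted p up to 0.132). ULK2, an autophagy kinase, fell from 10.6 ± 0.29 to 7.34 ± 0.35 FPKM, a call lost without vehicle replicate 2 or DHT replicate 3 (edgeR adjusted p up to 0.0619).

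Immune genes were mostly too low to test. Of 24 interferon-stimulated genes, 7 were tested in both measures, none rose and 2 fell, against backgrounds of 18.3% and 17.0%. ISG15, a ubiquitin-like modifier, was at 49.4, 48.5 and 50.4 FPKM with vehicle and 26.3, 26.1 and 29.9 FPKM with DHT, and STAT2 fell from 14.7 ± 0.067 to 11.3 ± 0.38 FPKM, a call lost without vehicle replicate 1 (edgeR adjusted p = 0.0551). IRF9 was at 2.69, 3.21 and 3.56 FPKM with vehicle and 2.69, 2.21 and 2.63 FPKM with DHT and was tested by FPKM only. Among 12 class I antigen presentation genes, 4 were tested in both measures. B2M, the light chain of class I molecules, rose and was at 189, 203 and 209 FPKM with vehicle and 357.5, 353.5 and 392.5 FPKM with DHT, whereas HLA-C fell from 63.05 ± 1.2 to 41.6 ± 1.8 FPKM, a call lost without vehicle replicate 1 or DHT replicate 1 (edgeR adjusted p up to 0.0969). HLA genes are close in sequence, and their reads may have been split or lost in counting.

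Of 17 immediate early genes, 10 were tested in both measures, 2 rose (20%) and 1 fell (10%), against 18.3% and 17.0% of all genes tested. NR4A1, an orphan nuclear receptor, was at 3.62, 4.02 and 3.07 FPKM with vehicle and 13.3, 13.7 and 15.4 FPKM with DHT, and FOS at 4.17, 4.25 and 4.102 FPKM with vehicle and 1.002, 1.25 and 1.08 FPKM with DHT. JUND rose from 15.5 ± 0.62 to 20.4 ± 1.3 FPKM, and JUN was at 8.47, 8.11 and 9.06 FPKM with vehicle and 7.85, 8.73 and 9.32 FPKM with DHT and was not called. Of 21 adhesion and mesenchymal genes, 13 were tested in both measures, 5 rose and 4 fell (median 0.14); without vehicle replicate 2, and with the DESeq2 Wald test, 2 fell. OCLN, occludin of tight junctions, was at 37.5, 38.1 and 37.5 FPKM with vehicle and 9.61, 9.29 and 9.71 FPKM with DHT, and FN1, fibronectin, at 61.2, 60.4 and 62.1 FPKM with vehicle and 17.2, 17.7 and 15.7 FPKM with DHT. Both fell in every DHT sample, while GRHL2, an epithelial transcription factor, and ITGAV, integrin alpha V, rose from 20 ± 0.32 to 44.7 ± 1.3 FPKM and from 13.1 ± 0.34 to 36.1 ± 2.7 FPKM. CDH1, E-cadherin, fell from 87.7 ± 3.0 to 64.3 ± 0.74 FPKM, a call lost without vehicle replicate 2 or DHT replicate 3 (edgeR adjusted p up to 0.136). SNAI2, the repressor Slug, was at 0, 0.0472 and 0.02203 FPKM with vehicle and 4.32, 3.95 and 4.61 FPKM with DHT, with 0 reads in every vehicle sample and 13, 10 and 9 reads with DHT; it was too low for the count test and entered the FPKM test through the DHT samples only. Of 20 neural and neuroendocrine markers, 6 were tested in both measures, 2 rose and 2 fell. None of the 8 secretory granule genes among the 20 was tested in both. The 6 were factors and surface genes, EZH2 included, so the counts describe only those. MAP2, a microtubule protein of neurons, was at 2.597, 2.81 and 2.85 FPKM with vehicle and 15.5, 15.3 and 15.3 FPKM with DHT, and EZH2, the Polycomb methyltransferase, rose from 7.46 ± 0.86 to 13.03 ± 0.14 FPKM. ENO2, neuron-specific enolase, was at 26.4, 29.1 and 26.9 FPKM with vehicle and 8.68, 8.700 and 8.43 FPKM with DHT, and NCAM1 fell from 1.16 ± 0.036 to 0.218 ± 0.065 FPKM; below 1 FPKM in every DHT sample, it did not enter the FPKM test when any 1 vehicle replicate was left out. SYP, synaptophysin, was at 1.69, 1.07 and 1.45 FPKM with vehicle and 1.25, 1.79 and 1.87 FPKM with DHT and the stem cell factor SOX2 at 0, 0.0778 and 0.0363 FPKM with vehicle and 0, 0 and 0 FPKM with DHT, and neither was tested in both measures.

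Of the luminal markers, the keratins KRT8 and KRT18 rose, from 185 ± 4.5 to 523 ± 26.9 FPKM and from 190.1 ± 4.7 to 501 ± 23.4 FPKM. HOXB13 and FOXA1, transcription factors of prostate epithelium, fell from 165 ± 1.2 to 70.2 ± 1.4 FPKM and from 126.5 ± 5.1 to 100.3 ± 3.3 FPKM. The direction of the luminal markers was therefore mixed, 3 up and 4 down of 8 tested, although the summed level was higher with DHT, most of it KLK3, KRT8 and KRT18.

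**Figure D4:**
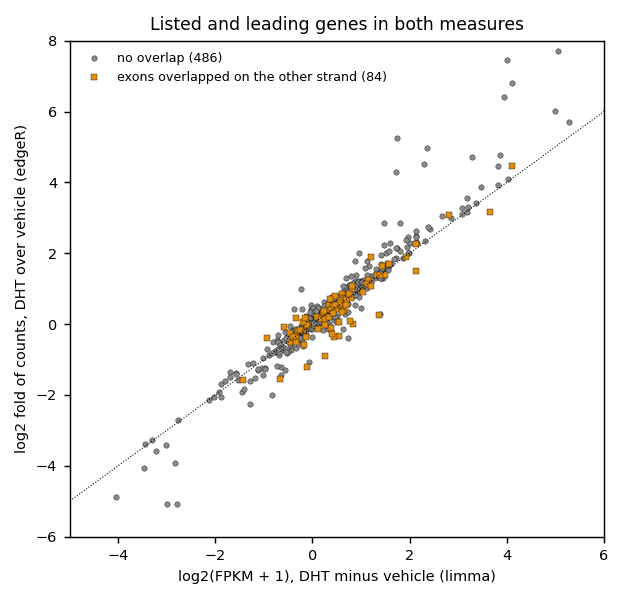
Difference by FPKM (limma, horizontal, log2(FPKM + 1), DHT minus vehicle) against the fold change by counts (edgeR, vertical, log2) for the listed or leading genes tested in both measures, with grey circles for 486 genes without and orange squares for 84 genes with exons overlapped on the opposite strand, and a dotted line of equality. Genes of low FPKM lie beyond the line at both ends, as CD200 does (-2.80 by FPKM and -5.07 by counts).

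Enzalutamide in the same serum was compared with DHT directly, without the vehicle samples. Of 10360 genes tested in both measures, 1020 were higher (9.85%) and 909 lower (8.77%) with DHT than with enzalutamide; without enzalutamide replicate 2, 578 were lower. The comparison shares the DHT samples with the comparison above, and the agents were at different concentrations, 1 nM and 10 μM. FKBP5 averaged 409 FPKM with DHT, 47.6 ± 1.8 FPKM with enzalutamide and 9.51 FPKM with vehicle, and KLK3 averaged 1258, 799.7 and 283 FPKM in the same order. Both were higher with DHT in the direct test (differences of 3.08 and 0.65, edgeR adjusted p = 2.36e-15 and 4.31e-07). Of the 28 androgen targets, 24 were higher and 1 was lower with DHT than with enzalutamide.

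The lists differed in how many members separated the agents. In ER folding 23 of 27 members were higher with DHT than with enzalutamide, in secretory transport 24 of 34 and in ribosome biogenesis 15 of 28. In DNA replication 9 of 36 members were higher with DHT, in amino acid response 7 of 33 and in mitosis 2 of 33. Over all genes tested, 9.85% were higher with DHT than with enzalutamide, and mitosis was not above that share. Shares below the number that rose against vehicle do not show that the agents acted alike on the rest. ATF4 averaged 206 FPKM with DHT, 221 ± 3.8 FPKM with enzalutamide and 145 FPKM with vehicle, and MYC averaged 98.8, 100.3 and 66.5 FPKM. Neither was called in the direct test. SGK1 and FN1 stood near vehicle with enzalutamide: SGK1 averaged 1.08 FPKM against 1.14 FPKM with vehicle and 18.4 FPKM with DHT, and FN1 68.01, 61.3 and 16.9 FPKM. BARD1 averaged 70.1 FPKM with enzalutamide and FADS2 45.8 FPKM, and all 4 genes differed between the agents in the direct test.

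**Figure D5:**
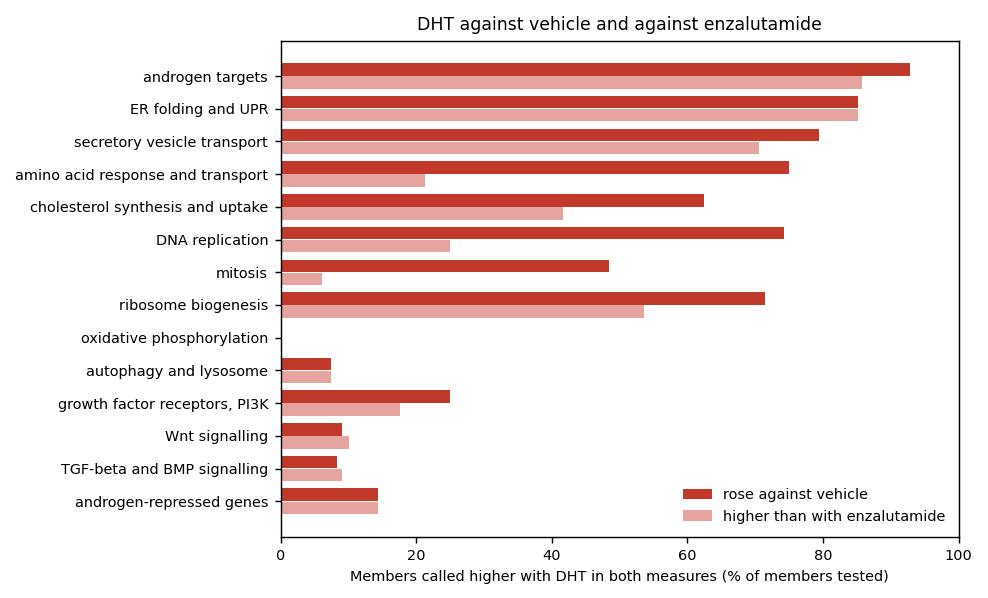
Members of 14 lists called higher with DHT, in percent of members tested, against vehicle (dark bars) and against enzalutamide in the same serum (light bars); both comparisons use the same 3 DHT samples. In ER folding the bars are equal (23 of 27 each), and in mitosis they are 15 of 31 and 2 of 33. Over all genes tested, the shares were 18.3% against vehicle and 9.85% against enzalutamide.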

How the data were processed

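Poly(A) RNA of MR49F cells was sequenced strand-specifically in single reads of 50 bases. The authors deposited whole-number read counts per gene, made with HTSeq, and FPKM per transcript, made with Cufflinks 2.1.1 from reads aligned with TopHat2 2.0.9 to GRCh37. Which strand was counted is not given in the sources used here. Deposited FPKM were summed over the transcripts of a gene, and rows that name no gene were left out of the counts; the counts on genes were 1221104 to 1643261 per sample, and their precision is that of counting error and the 3 replicates a group.

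The DHT and vehicle samples were fitted alone, without covariates. FPKM were tested with limma 3.58.1 on log2(FPKM + 1) for genes at 1 FPKM or more in at least 3 of the 6 samples, and counts with edgeR 4.0.16 (TMM scaling, filterByExpr with a minimum count of 10 and a total of 15, quasi-likelihood test), both in R 4.3.3 with Benjamini-Hochberg adjustment over all genes tested. A gene was called where both adjusted p-values were at most 0.05 with the same sign. DHT was compared with enzalutamide in the same way. Both fits were tested on simulated data.

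The 28 gene lists, their members and the tests were chosen with earlier results of these data known. Named genes were the key members marked in each list, the 10 genes with the largest increase and the 10 with the largest decrease in log2(FPKM + 1) among genes called in both measures whose groups did not overlap and whose higher group averaged at least 5 FPKM, and up to 4 called members with the largest difference and 2 in the opposite direction in each list. Other list members named in the text were chosen after their values were seen. Coordinates are those of GENCODE gene models on GRCh37, matched by symbol. Promoters came from RefSeq on GRCh38.p14.

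Alternatives were DESeq2 1.42.0 (Wald test) and an equal-variance test on its variance-stabilised counts, a replicate block, other filters, scalings and pseudocounts, fold thresholds, leaving out each replicate and, chosen after seeing the data, leaving out the 2621 genes whose exons another gene overlaps on the opposite strand. Some members of the lists are counted but are not reported here by name.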

Additional observations from a re-analysis of the deposited data

How the results depend on the processing

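Of the genes called in both measures, 1916 rose and 1780 fell, and the DESeq2 Wald test lowered the second number to 1157, while an equal-variance test on variance-stabilised counts without the less variable genes gave 1072 and 866. On counts alone, 2134 genes were higher and 1988 lower with edgeR, 1295 were lower with the Wald test, and 1177 and 1092 with the test on variance-stabilised counts; the causes were not tested. Requiring at least 1.5-fold in both measures left 809 and 920 genes, and at least 2-fold 316 and 345. Leaving out 1 replicate at a time gave 1664 to 1839 and 1303 to 1599 genes in both measures, 1855 to 2120 and 1646 to 1936 on counts, and 3158 to 3431 and 4502 to 5134 by FPKM. Against enzalutamide, the 1020 higher and 909 lower genes became 674 and 460 with the Wald test, and 726 to 956 and 578 to 835 with 1 replicate left out. Without genes overlapped on the opposite strand, an alternative chosen after seeing the data, 1645 rose and 1583 fell. Rescaling FPKM turned the median of the citric acid cycle from -0.03 to 0.053. Of 153 named genes called, 124 kept their call under every alternative run that could test them, and the direction of the majority was the same in 25 to 28 of 28 lists; the exceptions were G1 control, class I antigen presentation, neural markers, adhesion genes and oxidative phosphorylation. With the test on variance-stabilised counts, fewer members rose in secretory transport (17 in place of 27), the amino acid response (15 in place of 24), DNA repair (5 in place of 14), mitosis (7 in place of 15), glycolysis (6 in place of 10) and the citric acid cycle (3 in place of 6), and fewer fell in autophagy and lysosome (2 in place of 8), Wnt (2 in place of 5), TGF-beta and BMP signalling (3 in place of 5), G1 control (1 in place of 4), adhesion (2 in place of 4) and glycosylation (1 in place of 3), while 4 interferon-stimulated genes fell in place of 2. With at least 10 counts required in every sample, 17 androgen targets rose in place of 26 and 9 DNA repair genes in place of 14.

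Deviations of samples with the same replicate number correlated weakly and with both signs. The r values were 0.137, -0.183 and -0.176 in counts and 0.066, -0.058 and 0.107 in FPKM. Not every sample correlated best with its own number. With 3 samples a group, these values cannot tell whether samples of the same number shared a batch, so whether they were paired was not settled. With the replicate block, 1857 genes rose and 1673 fell in both measures, 2047 and 1862 on counts, 3605 and 5357 by FPKM, and 821 and 724 differed from enzalutamide.

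Depth limits the counts: genes with a few reads per sample, such as ORM1, PGC and CHRNA2, have changes of poorly known size.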

Other observations

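Some overlapping gene pairs showed the difference between the measures most clearly. ATP6V1C2, a proton pump subunit, averaged 0.527 FPKM with vehicle and 0.398 FPKM with DHT but had 5676 and 9124 reads in the counts, summed over the 3 samples of each group, whereas 41 reads were counted on it in the vehicle samples of the same line in full serum. The gene on the opposite strand, PDIA6, a disulfide isomerase, averaged 106 and 186 FPKM.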
